A study of Mus musculus with 12 samples.

Results

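The serpins of myeloid cells described here are 9 genes: Serpinb1a, Serpinb2, Serpinb6a, Serpinb6b, Serpinb8, Serpinb9, Serpinb10, Serpina3g and Serpinf1. They were taken by symbol from a count table of 54532 genes, which held 68 serpin symbols in all. The 9 genes were chosen by their measured values in these libraries as well as by family, so their fold changes and adjusted p-values are given as a description of them, and nothing is read from how many of them changed. The RNA came from marrow cells of C57BL/6 mice of wild-type (WT) genotype, which were kept for 5 days in medium with GM-CSF and IL-6 and then sequenced. All cultures received these cytokines. The vehicle group received DMSO alone, and the other groups received indole-3-propionic acid (IPA), a tryptophan metabolite made by gut bacteria, at 10 µM or at 50 µM, and each of the 3 groups had 4 libraries. The study asked how IPA affects the generation of myeloid-derived suppressor cells (MDSCs), the immunosuppressive immature myeloid cells that these cytokines induce. The study places the lower dose within the physiological range of IPA and the higher dose above it, and names a loss of viability at the higher dose as its reason to centre its own analysis on the lower one. Viability was not measured in these files, and its part in the values at the higher dose was not tested. The age of the mice was not used here. No label says that the 4 libraries of a group came from separate mice or cultures, so a p-value measures only the spread between these libraries, which may be technical.

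Serpins are a family of proteins that mostly inhibit proteases. An inhibitory serpin exposes a loop that a protease cuts, and the cut traps the protease in a stable complex, so each serpin molecule is used once. Clade B serpins, to which 7 of the 9 genes belong, lack a classical secretion signal and act mainly inside cells, where in myeloid cells they guard the cytosol against proteases that leak from granules and lysosomes.

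The genes stand in a few clusters of the mouse genome (build GRCm38, GENCODE M21 annotation), with 4 of them on chromosome 13 and 3 on chromosome 1. On chromosome 1, Serpinb2 (chr1:107511423-107535478), Serpinb10 (chr1:107529003-107549271) and Serpinb8 (chr1:107590006-107610484) follow each other on the plus strand. Serpinb2 and Serpinb10 overlap by 6476 bases, and Serpinb8 starts 40734 bases after the end of Serpinb10. On chromosome 13, Serpinb1a (chr13:32842092-32851185, minus strand), Serpinb6b (chr13:32965209-32979067, plus strand), Serpinb9 (chr13:33003250-33017957, plus strand) and Serpinb6a (chr13:33917918-34002794, minus strand) lie in this order. Serpina3g stands at chr12:104236245-104241939 on the plus strand and Serpinf1 at chr11:75409769-75422701 on the minus strand.

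The 250 bases before the start of the 3 neighbours on chromosome 1 are shown because these adjacent genes were all higher at 50 µM IPA than with vehicle. The sequences are those of RefSeq (GRCm38.p6) on the plus strand, 5′ to 3′, and each ends on the base before a transcript start that GENCODE also has. They cover chr1:107511173-107511422 for Serpinb2, chr1:107528753-107529002 for Serpinb10 and chr1:107589756-107590005 for Serpinb8. Capitals mark matches to any of the motifs listed after them.
Serpinb2: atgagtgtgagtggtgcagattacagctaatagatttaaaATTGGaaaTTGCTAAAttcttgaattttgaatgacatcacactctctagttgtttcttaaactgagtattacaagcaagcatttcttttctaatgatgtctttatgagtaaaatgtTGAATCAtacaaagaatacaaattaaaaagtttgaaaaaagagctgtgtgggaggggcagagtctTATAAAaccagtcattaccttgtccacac
Serpinb10: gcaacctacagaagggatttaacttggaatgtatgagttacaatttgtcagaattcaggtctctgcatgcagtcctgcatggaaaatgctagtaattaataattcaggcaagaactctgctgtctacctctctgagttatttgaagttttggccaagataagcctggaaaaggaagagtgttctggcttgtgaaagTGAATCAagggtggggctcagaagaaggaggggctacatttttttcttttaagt
Serpinb8: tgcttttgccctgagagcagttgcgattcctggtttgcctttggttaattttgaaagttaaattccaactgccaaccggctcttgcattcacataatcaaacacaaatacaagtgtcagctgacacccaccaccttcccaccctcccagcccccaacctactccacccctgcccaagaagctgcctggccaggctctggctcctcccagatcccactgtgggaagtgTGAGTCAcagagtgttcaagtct
Both strands were searched for the motif of TBP by the letters TATAAA, for that of AP-1 by the letters TGANTCA, for that of CREB by the letters TGACGTCA, for that of NF-Y by the letters CCAAT, for that of C/EBP by the letters TTGCNNAA, for the composite of C/EBP and ATF by the letters TGATGNAA, for that of PU.1 by the letters GAGGAA and for that of STAT factors by the letters TTCNNNGAA. TGANTCA reads the same on both strands, so each match to it counts on either. The Serpinb2 window held TATAAA between 29 and 24 bases before the start, letters present in 12.4% of the 32851 windows of this length in the RefSeq table. TGANTCA was present in all 3 windows shown, and in 6.75% of all windows. It lay between 94 and 88 bases before the start of Serpinb2, between 54 and 48 bases before that of Serpinb10 and between 23 and 17 bases before that of Serpinb8. The Serpinb2 window also held TTGCNNAA (9.56% of all windows) and, on the other strand, CCAAT (33.8%). The table had windows for 8 of the 9 genes, with 2 each for Serpinb2 and Serpinb6a. TGANTCA was absent from the windows of the other 5 genes, among them Serpinb6b and Serpinb6a, which were also called higher at 50 µM. The second Serpinb2 window overlaps the one shown, and it also held a match to TTCNNNGAA. A match describes letters in the window and is no measurement of binding.

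Counts were raw reads per gene, with totals between 20451312 and 28038612 per library. Levels are given as CPM, the counts of a gene scaled to a common library size, after TMM scaling, which adjusts each library's total. All 9 genes passed the filter on low counts (2 or more of the 12 libraries above 0.5 CPM), as did 14894 genes in all. Of the other 59 serpins, 12 passed it and 47 did not, and no serpin that failed it had more than 36 counts summed over the 12 libraries. Each pair of groups was compared with edgeR's quasi-likelihood test on its 8 libraries, and a gene was called changed at a Benjamini-Hochberg adjusted p under 0.05 over all 14894 genes. Both comparisons with vehicle use the same vehicle libraries, and each dose is likewise shared between comparisons.

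At 50 µM IPA, 5 of the 9 serpins were called higher than with vehicle (Serpinb6b, Serpinb2, Serpinb10, Serpinb6a and Serpinb8) and 2 were called lower (Serpinb1a and Serpina3g). Of all genes tested, 7.00% were called higher and 6.50% lower in this comparison. Serpinb9 and Serpinf1 were not called. At 10 µM against vehicle only Serpinb6a was called, as higher, against 0.329% of all genes called higher and 0.0806% called lower. Between the doses, 3 serpins were higher at 50 µM (Serpinb6b, Serpinb2 and Serpinb10) and 1 was lower (Serpinb1a), against 7.52% and 7.85% of all genes. The median log2 fold change of the 9 genes was 0.28 at 10 µM, 0.52 at 50 µM and 0.36 between the doses, beside medians over all genes of -0.01, 0.01 and 0.01. The plot of CPM by library shows the separation of the groups gene by gene.

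**Figure D1:**
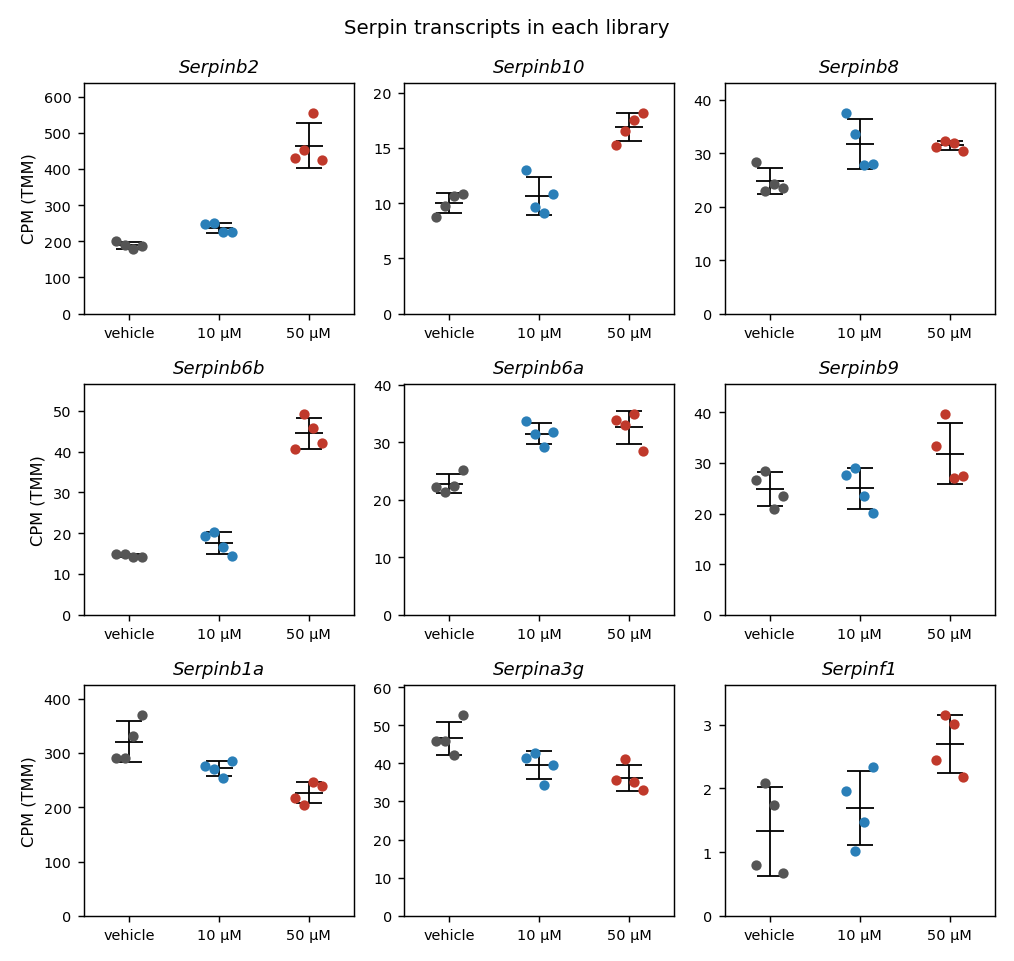
CPM after TMM scaling (vertical axis, linear from 0) of each of the 9 serpins in the 4 libraries of the vehicle, 10 µM IPA and 50 µM IPA groups (horizontal axis); points are libraries and bars are the mean ± SD. The 50 µM libraries of Serpinb2, Serpinb10 and Serpinb6b lie above all 8 others, those of Serpinb1a lie below all 8 others, and the groups of Serpinb9 overlap.

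Serpinb6b and Serpinb2 had the largest log2 fold changes of the 9 genes at 50 µM against vehicle. Serpinb6b is an inhibitor of granzyme A. It was at 14.9, 14.8, 14.1 and 14.2 CPM in the vehicle libraries, at 19.2, 20.4, 16.7 and 14.3 CPM at 10 µM and at 40.6, 49.2, 45.9 and 42.2 CPM at 50 µM, in the order of replicates 1 to 4. Every 50 µM library exceeded every other library, whereas the 10 µM and vehicle ranges overlapped through replicate 4 at 10 µM. The mean at 50 µM was 44.5 ± 3.89 CPM (SD, n = 4) against 14.5 ± 0.396 CPM with vehicle, a 3.09-fold difference (log2 fold change 1.63 ± 0.087 SE, edgeR adjusted p = 2.5e-07). It was also 2.53-fold higher at 50 µM than at 10 µM (edgeR adjusted p = 8.85e-07). At 10 µM against vehicle the log2 fold change was 0.28 ± 0.11 (SE), which was not called (edgeR adjusted p = 0.459).

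Serpinb2, known as plasminogen activator inhibitor 2, inhibits the urokinase encoded by Plau and is strongly induced in activated monocytes and macrophages. It was at 199.6, 189, 179 and 186 CPM with vehicle, at 247, 249, 225 and 225 CPM at 10 µM and at 429, 451, 555 and 423 CPM at 50 µM. The groups did not overlap and stood in the order of the dose, and replicate 3 at 50 µM was the highest library. The mean was 465 ± 61.6 CPM (SD, n = 4) at 50 µM and 188 ± 8.56 CPM with vehicle, a difference of 2.48-fold (log2 fold change 1.31 ± 0.091 SE, edgeR adjusted p = 2.22e-06). The 50 µM level was 1.97-fold that at 10 µM (edgeR adjusted p = 1.62e-06). The difference between 10 µM and vehicle had a log2 fold change of 0.33 ± 0.063 (SE) and missed the threshold (edgeR adjusted p = 0.0554). With DESeq2 it was called (adjusted p = 0.000345), in a fit that called 1.46% of 13450 genes higher and 0.394% lower.

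Serpinb10, or bomapin, is a nuclear serpin of haematopoietic cells, and the annotation lists the mouse gene as a polymorphic pseudogene. It was at 8.78, 9.77, 10.7 and 10.8 CPM with vehicle, at 13.005, 9.68, 9.07 and 10.9 CPM at 10 µM and at 15.3, 16.6, 17.5 and 18.2 CPM at 50 µM. The 50 µM libraries lay above all others, and the 10 µM libraries overlapped the vehicle range. The change from vehicle to 50 µM was 1.70-fold (log2 fold change 0.76 ± 0.11 SE, edgeR adjusted p = 0.000533), and that from 10 µM to 50 µM was 1.59-fold (edgeR adjusted p = 0.00149). At 10 µM against vehicle the log2 fold change was 0.09 ± 0.13 (SE), with an edgeR adjusted p of 0.913. Serpinb10 shares 291 exon bases with Serpinb2 on the same strand, and 6.97% of the 50-base stretches of its transcripts also occur in Serpinb2. Over the 12 libraries Serpinb10 had 3601 counts and Serpinb2 84508. The part of reads from the shared bases in the Serpinb10 values was not tested.

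Serpinb6a and Serpinb8 were higher at 50 µM than with vehicle and were not called between the doses. Serpinb6a inhibits cathepsin G, a serine protease of neutrophil granules. It was at 22.2, 21.4, 22.5 and 25.2 CPM with vehicle, at 33.8, 31.4, 29.2 and 31.8 CPM at 10 µM and at 33.9, 33.1, 35.0 and 28.6 CPM at 50 µM. All 8 IPA libraries exceeded the 4 vehicle libraries, and the dose groups overlapped. The log2 fold change was 0.47 ± 0.081 (SE, edgeR adjusted p = 0.0377) at 10 µM and 0.52 ± 0.093 (SE, edgeR adjusted p = 0.00241) at 50 µM, both against vehicle. Between the doses it was 0.05 ± 0.084 (SE, edgeR adjusted p = 0.745). The call at 10 µM was lost without any one of 7 of the 8 libraries, all but vehicle replicate 4, with edgeR adjusted p-values of up to 0.171, while the log2 fold change stayed between 0.43 and 0.52. It was also lost with the replicate number as a block in the fit. Exons of Serpinb6a overlap exons of Nqo2 by 762 bases, of 1110046J04Rik by 584 bases and of Ripk1 by 241 bases on the opposite strand, and 25.1% of its 50-base stretches also occur in another gene on either strand. Whether the counting used strand is not given in the sources used here. Nqo2 was not called in either comparison with vehicle (log2 fold changes 0.05 and 0.12), and Ripk1 was lower at 50 µM (log2 fold change -0.27, edgeR adjusted p = 0.0265). The part of their reads in the Serpinb6a values was not tested.

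Serpinb8 is an inhibitor of furin, the proprotein convertase of the secretory pathway. It was at 28.3, 23.0, 24.3 and 23.4 CPM with vehicle, at 37.5, 33.5, 27.8 and 27.9 CPM at 10 µM and at 31.2, 32.2, 31.9 and 30.3 CPM at 50 µM. The 50 µM libraries lay close together above all vehicle libraries, whereas replicates 3 and 4 at 10 µM fell below the highest vehicle library. The log2 fold change against vehicle was 0.35 ± 0.088 (SE, edgeR adjusted p = 0.0177) at 50 µM and 0.36 ± 0.11 (SE, edgeR adjusted p = 0.292) at 10 µM, so that near-equal differences fell on opposite sides of the threshold. Between the doses it was -0.01 ± 0.097 (SE). The call at 50 µM was lost without vehicle replicate 3 (edgeR adjusted p = 0.0570) and without 50 µM replicate 2 (edgeR adjusted p = 0.0599).

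Serpinb1a and Serpina3g were lower with 50 µM IPA. Serpinb1a, a counterpart of human SERPINB1, inhibits the neutrophil serine proteases elastase, proteinase 3 and cathepsin G. It was at 291, 291, 331 and 369.7 CPM with vehicle, at 276, 270.0, 254 and 285 CPM at 10 µM and at 217, 205, 247 and 238 CPM at 50 µM. The 3 groups did not overlap. Vehicle replicates 3 and 4 were the highest libraries, as they were for Elane. Among the vehicle libraries they were also the highest for the neutrophil marker S100a8 (3725, 3996, 4973 and 5823 CPM). The same held for the monocyte marker F13a1 (66.6, 75.1, 185 and 213 CPM) and the macrophage marker Cd68 (219, 200, 254 and 266 CPM). The neutrophil marker Csf3r did not follow this order (143, 176, 152 and 132 CPM), so the split was not particular to neutrophil markers. Over all genes vehicle replicate 4 differed most from replicates 1 and 2 of its group, with a chi-square per gene between their counts of 40.6 and 60.2 against 5.01 to 26.9 for the other pairs within a group. Without vehicle replicate 4 Serpinb1a was still called lower at 50 µM than with vehicle (log2 fold change -0.42, edgeR adjusted p = 0.00208). The part of this split in the Serpinb1a values was not tested. The mean was 321 ± 37.9 CPM (SD, n = 4) with vehicle, 271 ± 13.3 CPM at 10 µM and 227 ± 19.3 CPM at 50 µM. The log2 fold change at 50 µM against vehicle was -0.49 ± 0.094 (SE, edgeR adjusted p = 0.00397). At 10 µM against vehicle it was -0.24 ± 0.083 (SE) and was not called (edgeR adjusted p = 0.358). Between the doses it was -0.26 ± 0.070 (SE, edgeR adjusted p = 0.0211), a call lost without 10 µM replicate 2 or 4 or 50 µM replicate 1 or 2 (edgeR adjusted p up to 0.0817) and with all 12 libraries in 1 fit (edgeR adjusted p = 0.0506).

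Serpina3g, also called SPI2A, inhibits lysosomal cysteine cathepsins such as cathepsin B and is a clade A serpin that acts inside cells. It was at 45.7, 45.8, 42.3 and 52.6 CPM with vehicle, at 41.5, 42.6, 34.3 and 39.4 CPM at 10 µM and at 35.7, 41.0, 35.2 and 33.0 CPM at 50 µM. All 50 µM libraries lay below all vehicle libraries, and replicate 2 at 10 µM reached into the vehicle range. The log2 fold change against vehicle was -0.36 ± 0.093 (SE, edgeR adjusted p = 0.0227) at 50 µM and -0.24 ± 0.090 (SE, edgeR adjusted p = 0.427) at 10 µM. The call at 50 µM was lost without 50 µM replicate 3 (edgeR adjusted p = 0.0552) or replicate 4 (edgeR adjusted p = 0.0758). Serpina3g has close relatives beside it on chromosome 12. Of its 50-base stretches, 15.5% also occur in another serpin, so its counts carry that uncertainty. The 4 genes that shared the most stretches with it were Serpina3h, Serpina3i, Serpina3f and Serpina3e-ps. The largest total over the 12 libraries among these 4 genes was 408 counts, that of Serpina3f, against 11867 for Serpina3g.

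Serpinb9 and Serpinf1 were not called by edgeR in any comparison as reported here, and some alternative settings called each. Serpinb9 inhibits granzyme B. It was at 26.6, 28.5, 20.97 and 23.5 CPM with vehicle, at 27.5, 28.9, 23.4 and 20.01 CPM at 10 µM and at 33.3, 39.7, 26.9 and 27.3 CPM at 50 µM. Replicates 1 and 2 at 50 µM stood above all vehicle libraries and replicates 3 and 4 did not. The log2 fold change at 50 µM against vehicle was 0.36 ± 0.13 (SE, edgeR adjusted p = 0.0866), and at 10 µM it was 0.00 ± 0.13 (SE, edgeR adjusted p = 0.998). Between the doses it was 0.36 ± 0.13 (SE, edgeR adjusted p = 0.0813). With no filter on low counts Serpinb9 was called higher at 50 µM than with vehicle (edgeR adjusted p = 0.0390) and than at 10 µM (edgeR adjusted p = 0.00449). Both were also called with the replicate number as a block in the fit. Serpinf1 encodes pigment epithelium-derived factor, a secreted serpin that does not inhibit proteases. It had between 17 and 86 counts per library, or 0.794, 2.08, 1.75 and 0.676 CPM with vehicle, 1.96, 1.02, 1.47 and 2.34 CPM at 10 µM and 2.44, 3.15, 3.01 and 2.18 CPM at 50 µM. All 50 µM libraries exceeded all vehicle libraries, and the 10 µM range overlapped both. The log2 fold change of Serpinf1 at 50 µM against vehicle was 1.04 ± 0.34 (SE), with an edgeR adjusted p of 0.0624. It passed the threshold with DESeq2 (adjusted p = 0.0263), with limma-voom (adjusted p = 0.0357), with no filter on low counts in edgeR (adjusted p = 0.0253) and, in edgeR, without vehicle replicate 2 (adjusted p = 0.0217). It also passed in edgeR with the replicate number as a block in the fit.

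**Figure D2:**
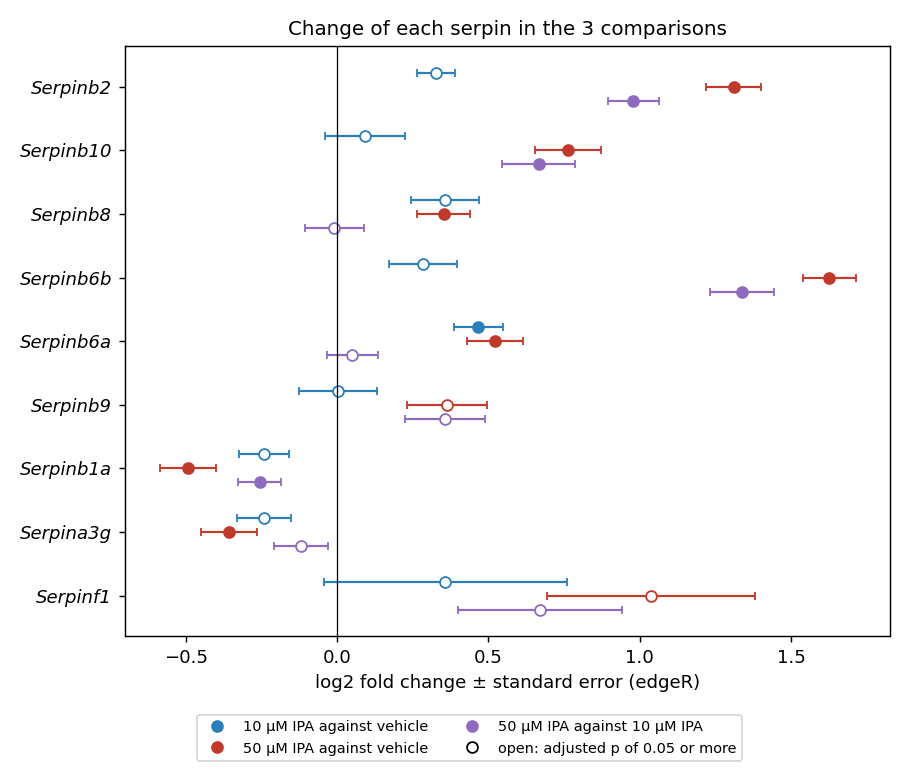
Log2 fold change ± standard error from edgeR (horizontal axis) of the 9 serpins (vertical axis) in the 3 comparisons, drawn in 3 colours; filled points have an adjusted p under 0.05. Serpinb6b and Serpinb2 are farthest to the right at 50 µM against vehicle, at 1.63 and 1.31, Serpinb6a and Serpinb8 have points near 0 between the doses, and Serpinb1a and Serpina3g lie left of 0 in all 3 comparisons.

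Levels were compared between the genes as CPM per kb of exon, since a longer transcript gives more reads. The length was that of all annotated exons of a gene merged, not of the transcripts expressed. The order between genes therefore depends on the annotation. With vehicle, Serpinb1a was the most abundant at 139 CPM per kb, followed by Serpinb2 at 80.2 and Serpina3g at 22.1 CPM per kb, with no overlap between the library ranges of these neighbours. Serpinb9 (7.12 CPM per kb) and Serpinb6b (6.40 CPM per kb) overlapped, and below them stood Serpinb8 (5.16), Serpinb6a (4.22), Serpinb10 (2.87) and Serpinf1 (0.561 CPM per kb), each separate from the next. At 10 µM the order began with Serpinb1a at 118 and Serpinb2 at 101 CPM per kb, and the ranges of Serpinb6b, Serpinb9, Serpinb8 and Serpinb6a overlapped from each to the next. At 50 µM Serpinb2 came first, at 198 CPM per kb, and Serpinb1a second, at 98.5 CPM per kb. Serpinb6b followed at 19.7 CPM per kb, with a range that overlapped that of Serpina3g at 17.2 CPM per kb. The summed CPM of the 9 genes was 625 to 706 in the vehicle libraries, 621 to 698 at 10 µM and 839 to 998 at 50 µM, and all 50 µM libraries lay above the others. Without Serpinb2 the sum of the other 8 genes was 436 to 520.1 CPM with vehicle, 396 to 451 CPM at 10 µM and 409.8 to 442 CPM at 50 µM, so that the higher sum at 50 µM was that of Serpinb2 and the ranges of the others overlapped.

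**Figure D3:**
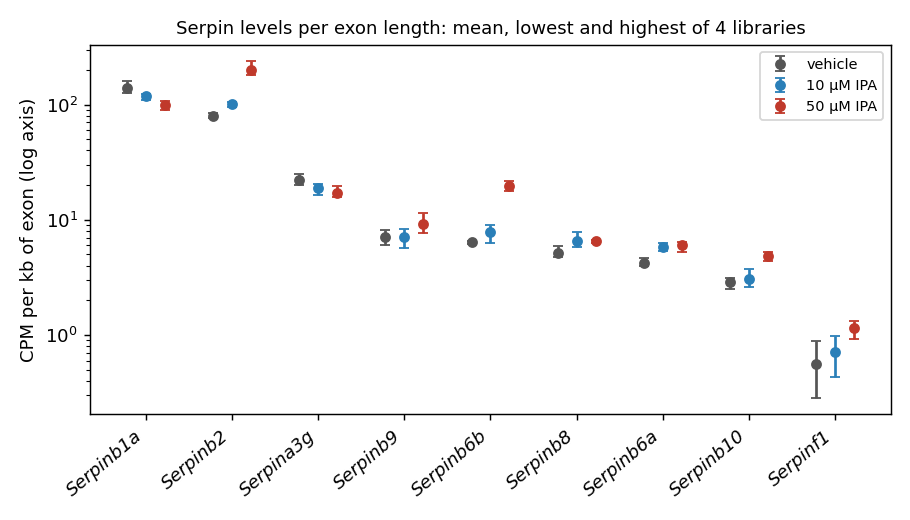
Mean CPM per kb of exon (vertical log axis) of the 9 serpins, ordered by their vehicle level (horizontal axis), in the vehicle, 10 µM and 50 µM groups; bars run from the lowest to the highest of the 4 libraries. Serpinb1a leads with vehicle (139 CPM per kb) and Serpinb2 at 50 µM (198 CPM per kb), and Serpinf1 is the lowest in all 3 groups.

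The proteases that serpins act on were described as a list of 26 genes, of which 21 were tested. At 50 µM against vehicle, 4 were called higher (Ctsl, St14, C1ra and Plau) and 4 lower (Elane, Prtn3, Prss57 and Ctsg), with a median log2 fold change of -0.01 over the 21. Over all genes tested, 7.00% were called higher and 6.50% lower, and the list was written with earlier results known. The 3 neutrophil serine proteases that Serpinb1a inhibits were among those that fell. Elane, neutrophil elastase, was at 273, 278, 379.7 and 440.2 CPM with vehicle, at 322, 308, 305 and 341 CPM at 10 µM and at 160.0, 105, 121 and 172 CPM at 50 µM. The 50 µM libraries of Elane lay below all others, while its 10 µM libraries fell inside the vehicle range. Its log2 fold change at 50 µM against vehicle was -1.29 ± 0.17 (SE, edgeR adjusted p = 0.000355). Those of Prtn3, proteinase 3, and Ctsg, cathepsin G, were -0.95 ± 0.13 (SE, edgeR adjusted p = 0.000351) and -0.44 ± 0.13 (SE, edgeR adjusted p = 0.0371). Prss57, another granule serine protease, had -0.70 ± 0.15 (SE, edgeR adjusted p = 0.00775).

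Plau, the urokinase that Serpinb2 inhibits, was at 98.9, 99.5, 126 and 104 CPM with vehicle and at 134, 125, 150.0 and 150.4 CPM at 50 µM. Vehicle replicate 3 reached the lowest 50 µM library, and the other 3 lay below all of them. Its log2 fold change of 0.39 ± 0.094 (SE, edgeR adjusted p = 0.0144) stood beside one of 1.31 for Serpinb2. Ctsl, the lysosomal cysteine protease cathepsin L, was at 349.9, 310.3, 421 and 438 CPM with vehicle, at 704, 697, 604 and 644 CPM at 10 µM and at 852, 810.4, 937 and 812 CPM at 50 µM. Its groups did not overlap, and its log2 fold changes against vehicle were 0.80 ± 0.10 (SE, edgeR adjusted p = 0.0102) at 10 µM and 1.17 ± 0.11 (SE, edgeR adjusted p = 1.54e-05) at 50 µM. Ctsl was the only listed protease called at 10 µM with edgeR, a call lost without vehicle replicate 1 or without 10 µM replicate 2, and DESeq2 called 4. The Ctsl call was also lost with the replicate number as a block in the fit. St14, the membrane protease matriptase, and C1ra, a complement protease, had log2 fold changes of 0.50 ± 0.084 (SE, edgeR adjusted p = 0.00176) and 0.50 ± 0.098 (SE, edgeR adjusted p = 0.0045) at 50 µM.

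Of the other proteases set by name, Ctsb, Furin, Casp1 and Gzmb were not called against vehicle, and Gzma was too low to be tested. Ctsb, cathepsin B, which Serpina3g inhibits, averaged 1206 CPM with vehicle, 1601 at 10 µM and 1413 CPM at 50 µM (edgeR adjusted p = 0.148 and 0.0819 against vehicle). Furin, the target of Serpinb8, averaged 195, 222 and 203 CPM in the same order (edgeR adjusted p = 0.373 and 0.63), and Casp1, the inflammatory caspase, 41.8, 41.6 and 43.0 CPM. Both granzymes on the list were low. Gzmb, the target of Serpinb9, averaged 0.300, 0.311 and 0.354 CPM, and Gzma, the target of Serpinb6b, had 1 count in 1 of the 12 libraries.

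**Figure D4:**
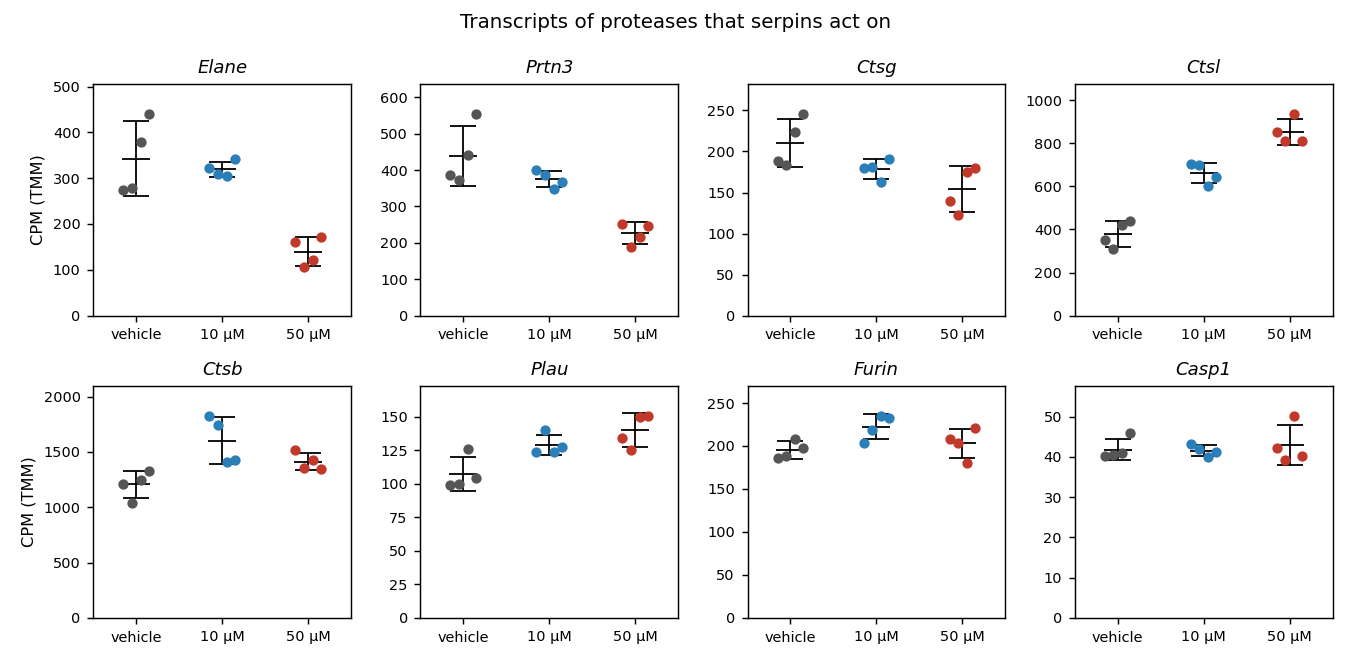
CPM after TMM scaling (vertical axis, linear from 0) of 8 proteases in the 4 libraries of each group (horizontal axis); points are libraries and bars are the mean ± SD. Elane and Prtn3 at 50 µM lie below all other libraries, Ctsl separates all 3 groups, and Furin and Casp1 overlap between groups.

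Between the doses, 2 of the 21 proteases were higher at 50 µM than at 10 µM and 7 were lower, with a median log2 fold change of -0.18. Over all genes tested, 7.52% were called higher and 7.85% lower. St14 (0.44) and Ctsl (0.37) were the higher ones. The 6 with the smallest adjusted p among the lower ones were Prtn3 (-0.73), Elane (-1.19), Ctss (-0.53), F7 (-0.42), Ctsk (-1.01) and C1s1 (-1.11), each as a log2 fold change. Ctss and Ctsk encode cathepsins S and K, F7 coagulation factor VII and C1s1 a complement protease.

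Of the 12 other serpins tested, none was called by edgeR at 10 µM against vehicle, where 1 had an unadjusted p under 0.05. At 50 µM against vehicle, Serpinh1, the collagen chaperone HSP47, was higher (log2 fold change 1.32 ± 0.35 SE, edgeR adjusted p = 0.0239) at a mean of only 1.59 CPM. Serpina3f, a relative of Serpina3g, was lower (log2 fold change -1.63 ± 0.35 SE, edgeR adjusted p = 0.00758), with means of 2.12 CPM with vehicle and 0.674 CPM at 50 µM. Serpine2, protease nexin 1, was also lower (log2 fold change -0.36 ± 0.097 SE, edgeR adjusted p = 0.0253). Between the doses Serpinb12 (-0.97) and Serpine2 (-0.33) were lower at 50 µM on the log2 scale. The median log2 fold change of these 12 genes was 0.10 at 10 µM and -0.08 at 50 µM against vehicle, and -0.13 between the doses.

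Protease inhibitors of other families were a list of 15 genes, 14 of them tested. None was called by edgeR at 10 µM, where 4 had an unadjusted p under 0.05 and DESeq2 called 1. At 50 µM against vehicle, Timp1, an inhibitor of matrix metalloproteinases, was higher (log2 fold change 0.56 ± 0.14 SE, edgeR adjusted p = 0.0163). Itih5 (-0.46) and Reck (-0.53), a membrane-bound inhibitor of metalloproteinases, were lower on the same scale. Between the doses Spint2 (0.58), an inhibitor of matriptase, was higher, and Wfdc17 (-0.69), Timp2 (-0.39) and Reck (-0.51) were lower. Among 7 receptors and binding partners of serpins or their targets, Plxdc2, a receptor proposed for the Serpinf1 product, was higher at 50 µM than with vehicle (log2 fold change 0.48 ± 0.075 SE, edgeR adjusted p = 0.00102) and than at 10 µM (0.28). Lrp1, which takes up serpin-protease complexes, was lower at 50 µM than at 10 µM (log2 fold change -0.71, edgeR adjusted p = 0.00036).

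Some markers of the cell types that the cultures could hold differed between the groups. The libraries are of whole cultures, so fewer cells of a type and less RNA per cell cannot be told apart. Over all genes, the shares called higher and lower were 0.329% and 0.0806% at 10 µM against vehicle. They were 7.00% and 6.50% at 50 µM against vehicle, and 7.52% and 7.85% between the doses. The 10 neutrophil markers, led by S100a9 and Ngp, summed to 20009 to 28045 CPM with vehicle, 18515 to 21500 CPM at 10 µM and 14636 to 20163 CPM at 50 µM, and 5 of them fell and 1 rose at 50 µM against vehicle. Serpinb1a and the granule proteases Elane, Prtn3 and Ctsg moved in the direction of those 5. The 10 macrophage markers summed to 1776 to 2017 CPM with vehicle, 2164 to 2396 CPM at 10 µM and 1875 to 2003 CPM at 50 µM, with 2 higher at 10 µM, and with 2 higher (Adgre1 and Lgmn) and 3 lower (Apoe, Csf1r and Mrc1) at 50 µM. The 5 monocyte markers summed to 2534 to 3229, 3673 to 4747 and 2213 to 2953 CPM in the 3 groups, with 1 of them (Fn1) higher at 10 µM than with vehicle and 3 lower at 50 µM than with vehicle. Between the doses, all 5 monocyte markers were lower at 50 µM than at 10 µM, as were 7 of the 10 macrophage markers and 4 of the 10 neutrophil markers, while 1 macrophage and 1 neutrophil marker were higher. In the same comparison 4 B cell markers and 1 marker each of dendritic cells, mast cells or basophils, and eosinophils were higher. The 5 B cell markers summed to 15.7 to 22.8 CPM with vehicle, 19.8 to 31.7 CPM at 10 µM and 32.2 to 51.8 CPM at 50 µM, with 4 higher at 50 µM, and the 6 dendritic cell markers to 81.8 to 96.3, 86.2 to 95.5 and 103 to 132 CPM, with 3 higher. Markers of mast cells or basophils summed to between 160 and 263 CPM and those of eosinophils to between 796 and 1250 CPM over the 12 libraries, with 1 marker of each higher at 50 µM than with vehicle. None of the tested markers of T or NK cells, erythroid cells or stromal cells was called in any comparison by edgeR, and 1 (Col1a1 at 50 µM against vehicle) had an unadjusted p under 0.05. Those of T or NK cells, erythroid cells and stromal cells summed to no more than 3.20, 1.30 and 6.20 CPM in any library. No marker was at 0 in all libraries. The part of such shifts in the serpin values was not tested.

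The genes whose levels followed each serpin most closely over the 12 libraries were found by Pearson's r on log2 CPM, among genes outside the family with a mean of at least 10 CPM. The 12 libraries share their groups, so these values largely repeat the group differences. Serpinb6b was most like Ptgs1 (r = 0.99) and Ptx3 (r = 0.99), and Serpinb2 was most like Ltbp3 (r = 0.98) and Unc93b1 (r = 0.98). Serpinb10 was most like Psph (r = 0.96) and Pck2 (r = 0.95), and Serpinb6a was most like Ccl7 (r = 0.94) and Ctsl (r = 0.94). For Serpinb1a the genes were Ankrd22 (r = 0.97) and Mfsd14b (r = 0.97), and for Serpina3g they were Anapc2 (r = 0.96) and Nudcd1 (r = 0.91). Serpinb8 was most like Pf4 (r = 0.89) and Slc11a1 (r = 0.89), Serpinb9 like Slc2a6 (r = 0.91) and Ccl22 (r = 0.87), and Serpinf1 like Cacnb3 (r = 0.88) and Ttc3 (r = 0.87).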

How the data were processed

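The authors trimmed the reads of a stranded mRNA library kit with Atropos, aligned them with HISAT2 2.2.1 to mm10 and assigned them to Ensembl genes by featureCounts 2.0.1. The deposited values are raw read counts of 54532 genes, without normalization or filter. The strand setting of the counting is not given in the sources used here. The title of 10 µM replicate 3 repeats that of replicate 2, so its library name was used. No library was a copy of another.

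CPM were computed with TMM factors. The 14894 genes above 0.5 CPM in 2 or more of the 12 libraries were tested with edgeR 4.0.16 (glmQLFit, glmQLFTest) in R 4.3.3, each pair of groups on 8 libraries with no replicate block. The study itself used DESeq2, which was an alternative here (1.42.0), as were limma-voom (limma 3.58.1), DESeq2 size factors, other filters, all 12 libraries in the fit, a replicate block and leaving out each library. The standard error is that of the log2 fold change implied by the F statistic. In a test on simulated data, 200 of 14894 genes were given an absolute log2 fold change of 1. The edgeR test found 158 of them in the design of 10 µM and vehicle (with 11 unchanged genes called), 155 in that of 50 µM and vehicle (13 unchanged) and 157 in that of the doses (14 unchanged).

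The members and lists were chosen with earlier results of these data known. The text names all 9 members, up to 6 called genes by smallest adjusted p from each other list, 10 proteases set by name and, as most like each member, 2 genes. Marker lists are described by their counts and sums, with the genes named in them chosen after their values were seen. Positions and exon lengths come from GENCODE M21 (GRCm38) and promoter sequences from RefSeq (GRCm38.p6). Figures were drawn with matplotlib 3.10.9.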

Additional observations from a re-analysis of the deposited data

How the results depend on the processing

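Over the alternatives run, the counts of called genes in the 4 lists stayed within 1.5 times the reported count in 146 cases and not in 34, and the log2 fold changes of the 9 serpins kept their direction in all but 11. At 50 µM against vehicle between 7 and 9 of the 9 serpins were called with all libraries and between 6 and 8 when 1 library was left out, and Serpinb6b, Serpinb2, Serpinb10, Serpinb6a and Serpinb1a were called in all 8 fits that left out 1. At 10 µM against vehicle, where 1 serpin was called, 2 were with DESeq2, with no filter and with at least 10 counts in every library, 0 with the replicate block (Serpinb6a with an edgeR adjusted p of 0.226), and between 0 and 2 without 1 library. Of the target proteases at 10 µM, 4 were called with DESeq2, 3 with no filter and with all 12 libraries, 0 with the replicate block and 0 to 2 without 1 library (2 without vehicle replicate 4). Of the other inhibitors at 10 µM, 1 was called with DESeq2, with no filter and with all 12 libraries, and 0 to 1 without 1 library. At 50 µM against vehicle 5 other inhibitors were called with DESeq2, 7 with no filter, 6 with the replicate block and 1 to 6 without 1 library, where 50 µM replicate 2 gave the 1 and vehicle replicate 4 the 6, and 1 to 3 other serpins were called without 1 library, where 50 µM replicate 2 gave the 1. Between the doses 1 other serpin was called with the replicate block and 0 to 2 without 1 library, where 10 µM replicate 2 gave the 0 and 10 µM replicate 3 and 50 µM replicates 2 and 3 each gave 1. The cause was not tested. Values near 0 changed sign. Serpinb9 at 10 µM against vehicle was -0.00568 with limma-voom and between -0.0725 and 0.0977 without 1 library. Serpinb10 at 10 µM was between -0.0202 and 0.164 without 1 library. Serpinb8 between the doses was 0.000298 with limma-voom, 0.00139 with the replicate block and between -0.0648 and 0.0884 without 1 library, all as log2 fold changes. Same-numbered libraries were not treated as paired. The correlations of their deviations from the group means lay between -0.24 and 0.14, and not every library correlated best with its own number. Such correlations cannot exclude that libraries of a number share a mouse or culture. The study used a repeated-measures test for its flow cytometry of this culture assay. With the replicate block Serpinb9 was called higher at 50 µM than with vehicle (adjusted p = 0.0257) and than at 10 µM (adjusted p = 0.0155), and Serpinf1 was called against vehicle (adjusted p = 0.0276), all in edgeR. With all 12 libraries in the fit Serpinb1a was not called between the doses (edgeR adjusted p = 0.0506). The Serpinf1 counts of 17 to 86 per library limit its precision.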
